A study of Homo sapiens with 23 samples.

Results

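The genes described here lie next to each other on chromosome 19 in hg38, from HAS1 (51713112 to 51723991, minus strand) to ZNF615 (51991332 to 52008230, minus strand). They are the formyl peptide receptor genes FPR1, FPR2 and FPR3, the hyaluronan synthase gene HAS1, the zinc finger genes ZNF577, ZNF649, ZNF613, ZNF350 and ZNF615, and the long noncoding RNA gene ZNF350-AS1. These 10 of the 60605 genes in the count table were chosen by the rise of FPR1 and ZNF350-AS1 counts within 0.5 h of TRPS1 degradation, so the 0.5 h values are given as a description without a test. A filter on low counts kept 26057 genes, among them 9 of these 10. HAS1 did not pass it.

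The counts come from PRO-seq, in which engaged RNA polymerases of permeabilized cells add a labeled nucleotide, so that reads mark nascent RNA. The cells were T47D, a luminal breast cancer line that expresses the estrogen receptor, as a single clone (Clone 28) with a degron tag at the endogenous TRPS1 locus. Every library, the controls included, carries this tag. The control group received DMSO (0.1% by volume, 24 h) and the treated groups received the ligands dTAG-13 (50 nM) plus dTAG-V-1 (50 nM), together called dTAG, which direct the tagged TRPS1 protein to degradation, for 0.5, 1, 2, 4 or 24 h. There were 4 libraries in each group except 24 h, which had 3, since its replicate 1 was not analysed here. Replicates were cultures of 1 clone treated and harvested at separate times of a single day, so the p-values measure the spread between such cultures only. Gene counts summed to between 4408544 and 17571616 per library, with a median of 9768427, and the deepest library of replicate 1 reached 7886241. The luminal breast markers ESR1, PGR, KRT8, KRT18, KRT19, EPCAM, CDH1, SPDEF and TFF1 all passed the filter (9 of 9) and summed to 5089 to 6407 CPM (counts scaled by library size) in each library.

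TRPS1 is a zinc finger protein that binds GATA-type DNA sites and is known as a repressor of transcription. Formyl peptide receptors are G protein-coupled receptors through which neutrophils and other phagocytes sense bacterial and mitochondrial peptides. Most zinc finger genes of chromosome 19 encode KRAB proteins, which bind DNA through arrays of zinc fingers and silence their targets, often retroelements, through the corepressor TRIM28. They arose by duplication and lie in clusters, so that their sequences are alike and reads may be shared between copies.

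RefSeq promoter windows (GRCh38.p14, from 250 bases before to 50 bases after an annotated start) were found for 8 of the 10 genes, with none for FPR3 and ZNF649. The windows of FPR1 and ZNF350-AS1, whose rise defined the region, are shown with those of the neighbouring zinc finger genes. Each is written 5′ to 3′ along its own gene, and capitals mark matches on either strand to the motifs searched. The first was AGATAA, the letters of a typical GATA-type site. Another was GGTCA, the core of many nuclear receptor sites. The last was ATGGCNGC, like the letters read by the factor YY1, which was added after the sequences had been read. No matches overlapped. The windows are chr19:51751829-51752128 (minus strand) for FPR1, chr19:51887902-51888201 (minus) for ZNF577 and chr19:51927222-51927521 (plus) for ZNF613. Those of ZNF350-AS1, ZNF350 and ZNF615 are chr19:51948884-51949183 (plus), chr19:51986791-51987090 (minus) and chr19:52008162-52008461 (minus).
FPR1: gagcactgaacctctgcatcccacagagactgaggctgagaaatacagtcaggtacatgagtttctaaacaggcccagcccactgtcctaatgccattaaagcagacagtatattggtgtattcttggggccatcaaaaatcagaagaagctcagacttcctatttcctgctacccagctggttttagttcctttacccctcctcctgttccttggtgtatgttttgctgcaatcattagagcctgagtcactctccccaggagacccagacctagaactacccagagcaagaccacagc
ZNF577: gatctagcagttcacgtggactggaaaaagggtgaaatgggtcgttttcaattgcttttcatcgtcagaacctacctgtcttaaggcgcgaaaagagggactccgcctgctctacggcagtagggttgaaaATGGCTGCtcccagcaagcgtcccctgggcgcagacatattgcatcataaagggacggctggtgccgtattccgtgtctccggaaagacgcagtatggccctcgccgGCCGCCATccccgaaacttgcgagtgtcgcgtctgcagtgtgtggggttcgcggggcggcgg
ZNF613: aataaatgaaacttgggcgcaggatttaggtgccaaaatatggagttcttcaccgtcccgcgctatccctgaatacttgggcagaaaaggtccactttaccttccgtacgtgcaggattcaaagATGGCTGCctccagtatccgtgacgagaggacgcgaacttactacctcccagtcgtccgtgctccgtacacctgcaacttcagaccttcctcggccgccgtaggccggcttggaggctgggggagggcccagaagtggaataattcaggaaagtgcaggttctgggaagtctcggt
ZNF350-AS1: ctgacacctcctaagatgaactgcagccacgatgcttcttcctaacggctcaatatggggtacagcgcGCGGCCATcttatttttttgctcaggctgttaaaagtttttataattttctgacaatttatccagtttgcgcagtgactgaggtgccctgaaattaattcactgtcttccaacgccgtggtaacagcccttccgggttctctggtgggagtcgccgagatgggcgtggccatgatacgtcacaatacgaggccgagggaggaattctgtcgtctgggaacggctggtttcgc
ZNF350: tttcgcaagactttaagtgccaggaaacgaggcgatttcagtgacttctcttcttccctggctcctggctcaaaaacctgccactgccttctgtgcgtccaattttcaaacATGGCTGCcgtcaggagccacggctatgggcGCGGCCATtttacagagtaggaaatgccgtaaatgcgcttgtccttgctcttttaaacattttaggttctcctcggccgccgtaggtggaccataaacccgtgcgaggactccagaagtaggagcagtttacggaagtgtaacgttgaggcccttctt
ZNF615: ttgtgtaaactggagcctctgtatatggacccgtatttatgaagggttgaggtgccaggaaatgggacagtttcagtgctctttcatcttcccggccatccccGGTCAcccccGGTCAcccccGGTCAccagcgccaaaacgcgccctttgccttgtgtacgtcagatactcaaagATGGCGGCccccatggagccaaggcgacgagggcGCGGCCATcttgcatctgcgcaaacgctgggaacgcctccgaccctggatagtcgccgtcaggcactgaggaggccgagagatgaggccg
The FPR1 window held none of these letters. ATGGCNGC was found in the windows of all 5 zinc finger cluster genes shown, with 2 matches each in ZNF577, ZNF350 and ZNF615 and 1 each in ZNF613 and ZNF350-AS1. It was found in 7.38% of 35116 RefSeq promoter windows and in 7.39% of 257 windows of zinc finger genes on chromosome 19. GGTCA appeared 3 times in a row in the ZNF615 window, and at least once in 37.4% of all windows. Of the windows not shown, that of HAS1 held 2 matches to GGTCA and 1 of the 2 FPR2 windows held 1. AGATAA, held by 10.3% of all windows, was found in none of the 6 windows shown. It was present in 1 of the 2 FPR2 windows, at position -192 from the annotated start. A match is a description of letters and not a binding site.

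The genes overlap, and their geometry sets which reads could be shared. In GENCODE v44, FPR1 (51745172 to 51804115, minus strand) spans 58.9 kb because 1 of its 4 transcripts starts at 51804115, whereas its canonical transcript runs from 51751878 to 51745773. FPR2 (51752026 to 51770531, plus strand) lies wholly inside that span on the other strand. FPR3 (51795157 to 51826190, plus strand) overlaps FPR1 by 8959 bases and ZNF577 (51804816 to 51890950, minus strand) by 21375 bases, both on the opposite strand. ZNF350-AS1 (51949116 to 51981367, plus strand) overlaps ZNF350 (51964340 to 51986856, minus strand) by 17028 bases. The ZNF577 span shares 1716 bases with ZNF649 (51889235 to 51905040, minus strand) on the same strand, so reads there cannot be assigned to one of them. ZNF613 (51927147 to 51948759, plus strand) overlaps no other member.

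**Figure D1:**
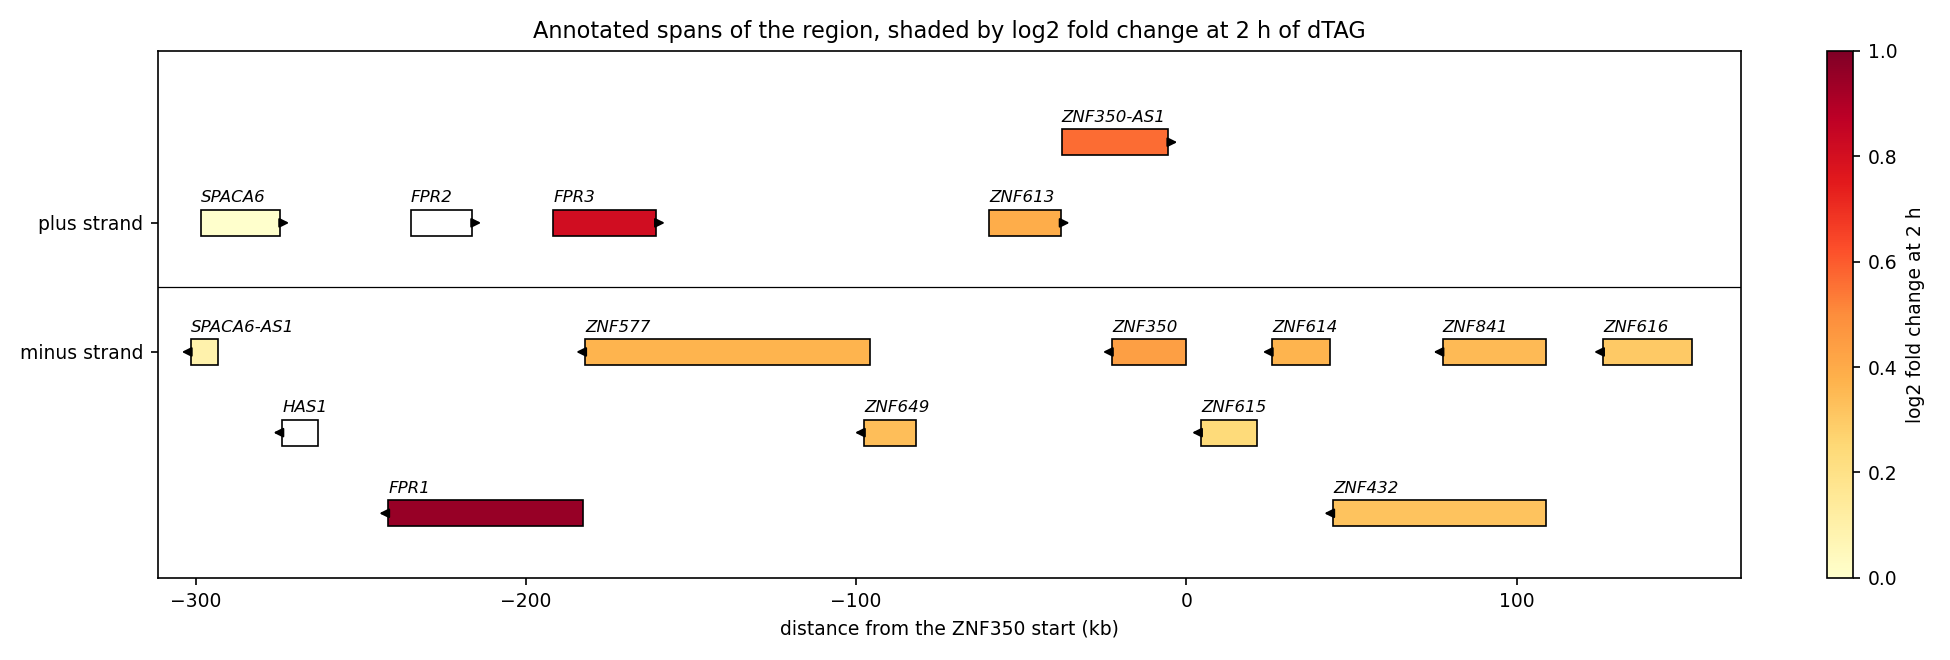
Annotated GENCODE v44 spans of the members and their nearest counted neighbours, with the distance from the ZNF350 start in kb on the x axis, plus-strand genes above and minus-strand genes below the line, and arrowheads at the 3′ ends. Shading is the fitted log2 fold change at 2 h of dTAG against DMSO; HAS1, which was not tested, and FPR2, with a mean of 23.3 counts per library, are left white. FPR1 (0.95) and FPR3 (0.81) are the darkest, the zinc finger genes lie between 0.24 and 0.44, and SPACA6 beside HAS1 (-0.07) is palest.

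The use of strand in counting is not stated, so it was read from nested genes. Where a gene lies wholly inside another, counting without strand over whole spans would give the outer gene at least the counts of the inner one. Among inner genes with at least 230 counts in all, the inner gene had more counts than the outer one in 335 of 2067 pairs on opposite strands (16.2%), against 16 of 2456 pairs on the same strand (0.651%). FPR2 had more counts than FPR1 in 3 of 23 libraries, all of replicate 1: 40 against 28 in DMSO, 73 against 59 at 0.5 h and 45 against 31 at 4 h. Counting without strand over whole GENCODE v44 spans could not have given these values. However, the annotation that was counted is not given. The 16 pairs on the same strand could not arise from these whole spans either, so the counted spans may differ for some genes. The canonical FPR1 transcript does not overlap FPR2, and if only it was counted, the FPR1 and FPR2 values do not show the use of strand.

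Under DMSO the zinc finger genes were transcribed well above the receptor genes. Per kb of annotated span, ZNF613 was highest at 4.11 ± 0.417 CPM per kb (SD, n = 4 for each gene in this paragraph), followed by ZNF649 at 2.59 ± 0.274, ZNF350 at 2.52 ± 0.0951, ZNF615 at 1.85 ± 0.135 and ZNF577 at 1.29 ± 0.0663 CPM per kb. ZNF350-AS1 stood at 0.611 ± 0.0783 CPM per kb. FPR2 at 0.195 ± 0.107, FPR3 at 0.172 ± 0.0214, FPR1 at 0.0892 ± 0.0165 and HAS1 at 0.0445 ± 0.0122 CPM per kb were the lowest. Of the neighbours in this order, the ranges of ZNF649 and ZNF350 overlapped, as did those of FPR2 and FPR3. The other neighbouring ranges did not. The canonical FPR1 transcript covers 6.11 kb of its 58.9 kb span, and how many of its reads fall there is not known from these counts. The same holds for ZNF577, whose canonical transcript covers 20.9 kb of its 86.1 kb span. Before division by length ZNF577 had the highest DMSO mean of these genes (111 CPM), so its place in the order rests on the span used.

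Most of these genes rose together after dTAG and stayed raised to 24 h. The contrasts from 1 to 24 h share the DMSO libraries with the 0.5 h contrast that chose the genes, so they are not independent of it. A gene was called at an adjusted p (Benjamini-Hochberg) under 0.1 in edgeR's quasi-likelihood test. By this rule 6 of the 9 tested genes were called at 1 h, where 1.25% of all 26057 tested genes were called in either direction and 0.514% as higher. At 2 h 7 of 9 were called (background 0.733%, higher 0.43%), at 4 h 6 of 9 (background 0.833%, higher 0.526%) and at 24 h 5 of 9 (background 0.863%, higher 0.564%). Every called gene was higher after dTAG. FPR1 and ZNF350-AS1, whose rise at 0.5 h chose the region, are among the called genes at all 4 times. The choice itself therefore favoured counts above the background. With the replicate number as a block, 7, 8, 7 and 6 of 9 were called at 1, 2, 4 and 24 h, against 3.25%, 2.43%, 2.49% and 2.65% of all tested genes. DESeq2 called 7, 7, 6 and 6 of the 9, against 1.27%, 1.1%, 1.13% and 1.32% of all 26057. Genes to which it gave no adjusted p, FPR2 among them, count here as not called. The median log2 fold change of the 9 was 0.39, 0.39, 0.38 and 0.32 at these times, against 0.00 to 0.01 over all tested genes.

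**Figure D2:**
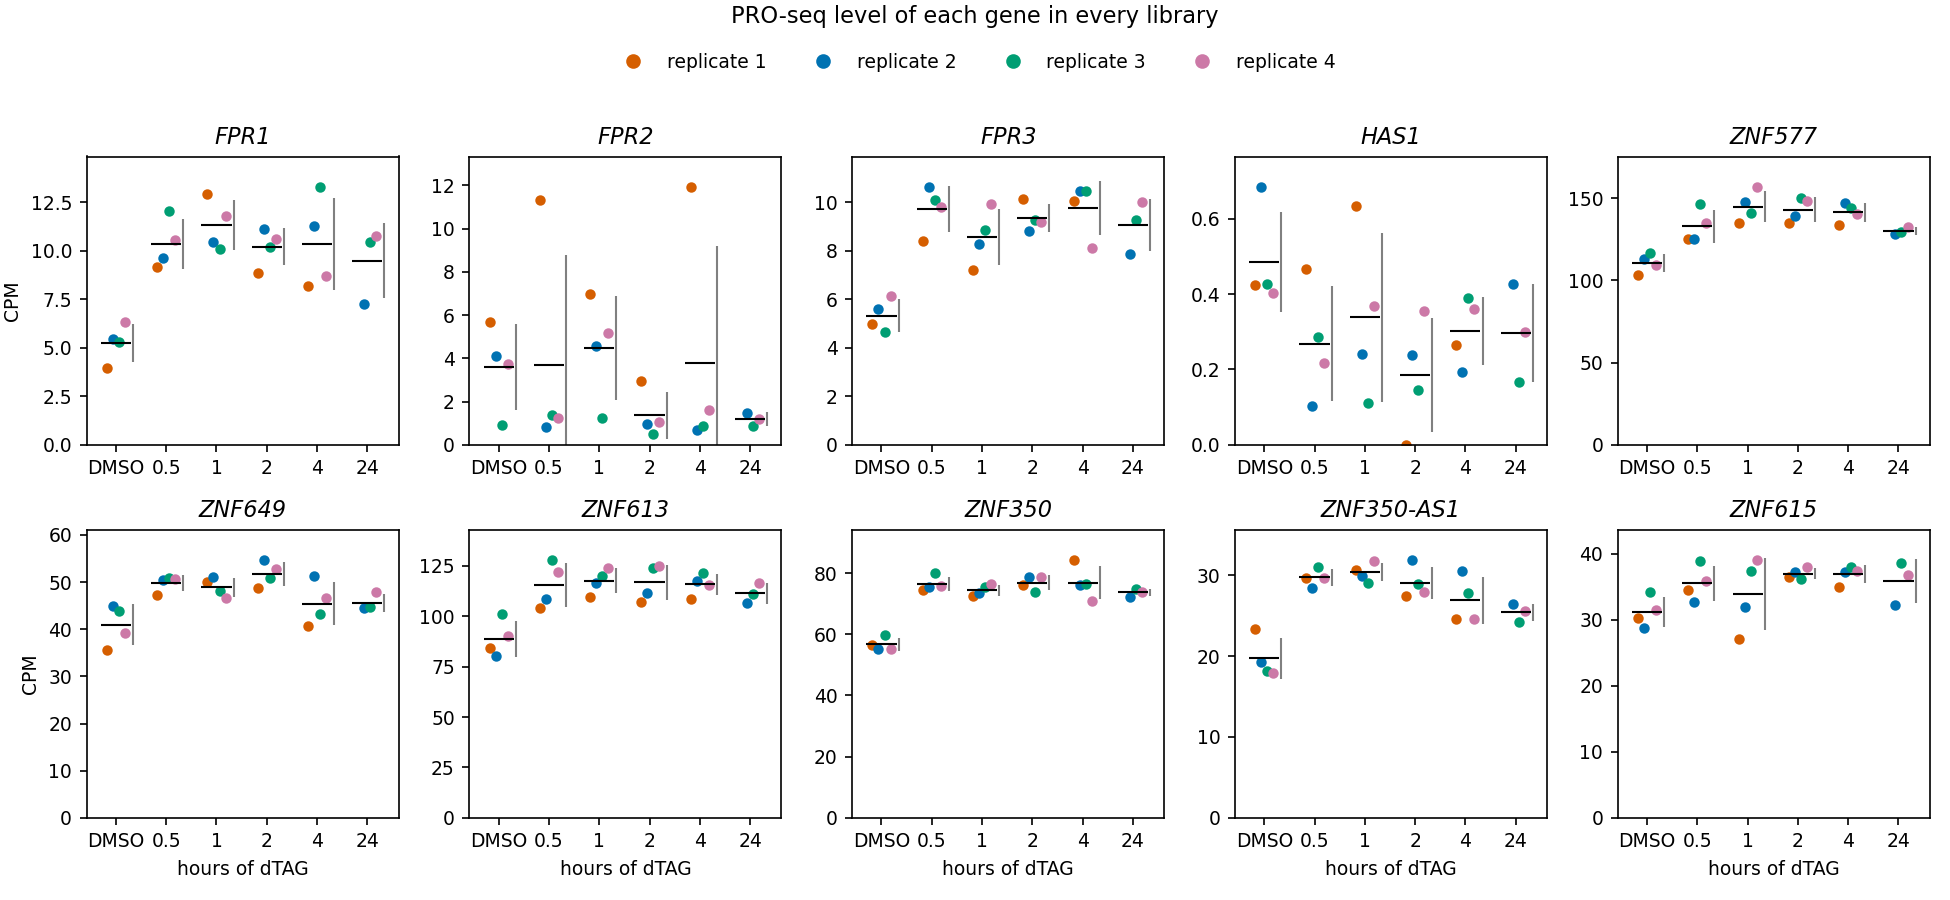
CPM of each gene (y axis, from 0, a separate scale per gene) in the 23 libraries, by hours of dTAG (x axis) and replicate number (colour), with the group mean as a black bar and 1 SD as a grey line. FPR1, FPR3, ZNF577, ZNF613, ZNF350 and ZNF350-AS1 show no overlap between DMSO and any dTAG group, whereas FPR2 is spread widely with replicate 1 highest in each group that has it. Each dTAG group is set against the same DMSO libraries, and the 0.5 h values entered the choice of the genes. How often other tested genes show no overlap was not counted, either for this figure or for the separations from DMSO described gene by gene.

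FPR1, the classical high-affinity receptor for formylated peptides, had the largest rise of the 9 tested genes at 1, 2, 4 and 24 h. Its DMSO libraries, given here and below in the order of their replicate numbers, held 3.97, 5.47, 5.28 and 6.32 CPM. After 0.5 h of dTAG they held 9.16, 9.59, 12.1 and 10.5 CPM, after 1 h 12.9, 10.5, 10.1 and 11.8 CPM, and after 2 h 8.87, 11.1, 10.2 and 10.6 CPM. Every one of these treated libraries was above every DMSO library. The same held at 4 h (8.2, 11.3, 13.3 and 8.67 CPM) and at 24 h (7.24, 10.5 and 10.7 CPM for replicates 2 to 4). In the fit its change at 0.5 h was 0.98 ± 0.16 (SE) on the log2 scale. The tested contrasts at 1, 2, 4 and 24 h gave 1.08 ± 0.17, 0.95 ± 0.16, 0.99 ± 0.16 and 0.85 ± 0.17, with edgeR adjusted p of 0.00187, 0.00409, 0.00283 and 0.0174. These levels rest on 28 to 210 counts per library. The call was lost without replicate 3 at 4 h (log2 fold change 0.84) and 24 h (0.77), without replicate 4 at 24 h (0.85), and at both times when only the compared groups were fitted.

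FPR3, a receptor related to FPR2 with few well-defined ligands, rose nearly as far as FPR1. DMSO libraries held 4.96, 5.6, 4.63 and 6.12 CPM. At 0.5 h the values were 8.39, 10.6, 10.1 and 9.82 CPM. They were 7.19, 8.3, 8.85 and 9.93 CPM after 1 h and 10.2, 8.83, 9.26 and 9.18 CPM after 2 h. No dTAG library of FPR3 fell within the DMSO range, and those of 4 h (10.1, 10.5, 10.4 and 8.13 CPM) and 24 h (7.88, 9.25 and 10.0 CPM) were again higher. For FPR3 the log2 fold change was 0.88 ± 0.12 (SE) at 0.5 h, then 0.69 ± 0.12, 0.81 ± 0.12, 0.88 ± 0.12 and 0.77 ± 0.12 at 1, 2, 4 and 24 h. The edgeR adjusted p was 0.00548, 0.000858, 0.000338 and 0.002 at these 4 times. Without replicate 3 the calls at 1 h (log2 fold change 0.60) and 24 h (0.68) were lost, as was that of 1 h when only the compared groups were fitted. FPR1 stood at 98.7 ± 14.2 counts per 100 FPR3 counts in DMSO (SD, n = 4) and at 104 ± 11.0 at 24 h (n = 3), with overlapping ranges.

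FPR2, which binds formylated peptides as well as annexin A1 and lipid mediators, was not called at any of the 4 tested times and varied with the replicate number. It stood at 5.67, 4.1, 0.927 and 3.71 CPM in DMSO. The 0.5 h libraries held 11.3, 0.817, 1.38 and 1.24 CPM and the 4 h libraries 11.9, 0.673, 0.858 and 1.63 CPM, so replicate 1 was far above the other three in both groups. At 1 h (6.98, 4.57, 1.22 and 5.15 CPM) and 2 h (2.96, 0.955, 0.506 and 1.07 CPM) replicate 1 was again highest, and 24 h held 1.49, 0.881 and 1.2 CPM without a replicate 1 library. The log2 fold changes of 0.31 ± 0.85, -1.45 ± 0.91, -0.28 ± 0.89 and -1.57 ± 0.99 (SE) at 1, 2, 4 and 24 h did not pass the test, with edgeR adjusted p of 0.992, 0.88, 1.00 and 0.839. With the replicate block the errors were smaller, and the values were 0.35 ± 0.43, -1.46 ± 0.48, -0.44 ± 0.45 and -0.83 ± 0.52 (SE), with edgeR adjusted p of 0.807, 0.165, 0.833 and 0.632. Compared with DMSO of the same number, FPR2 was lower in 4 of 4 libraries at 2 h and in 3 of 3 at 24 h, and higher in 4 of 4 at 1 h, while the ranges of the groups overlapped.

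**Figure D3:**
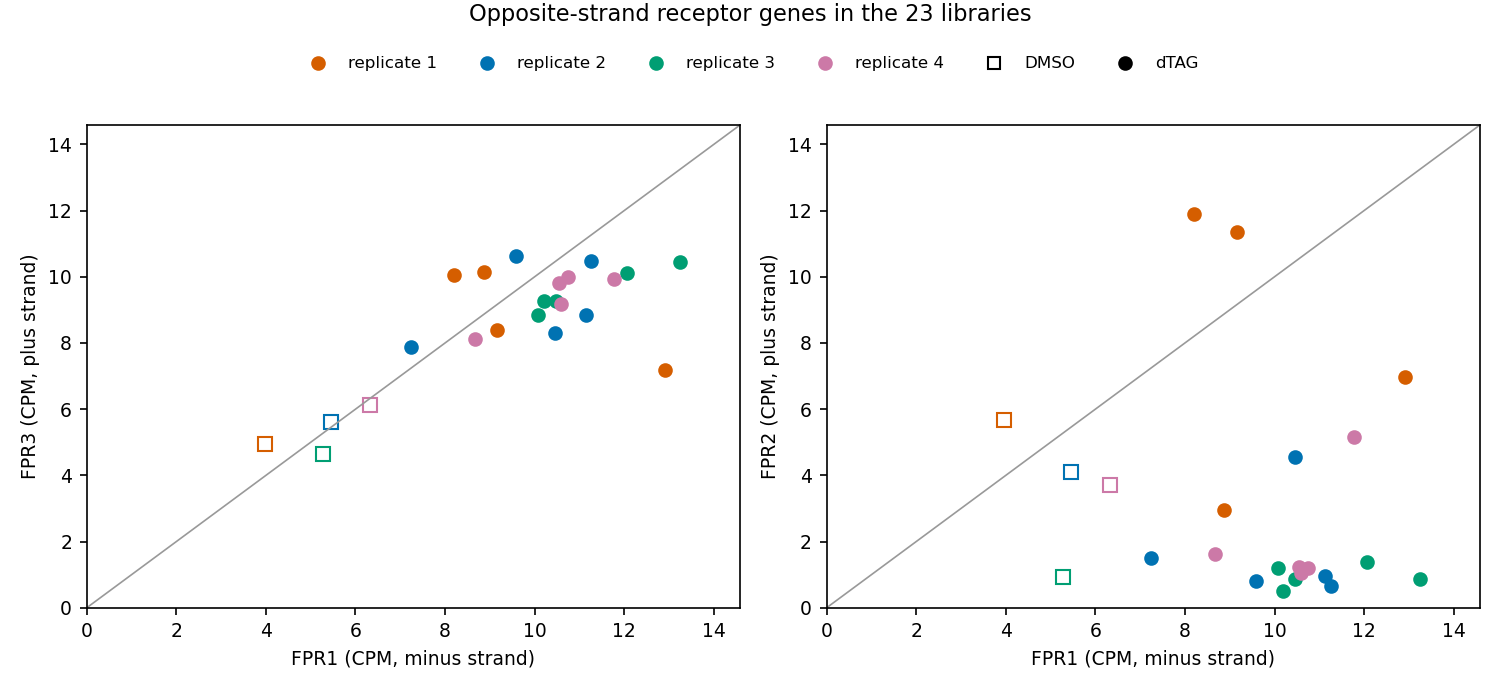
CPM of FPR3 (left) and FPR2 (right) on the y axes against FPR1 CPM on the x axes in the 23 libraries, with open squares for DMSO, filled circles for dTAG, colour for the replicate number and a grey line of equality. The DMSO libraries lie at the low end for FPR1 and FPR3 together, while FPR2 exceeds FPR1 only in 3 replicate 1 libraries.

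Receptors of this family are used by myeloid cells, so the markers of those cells are given beside them. Of 9 myeloid markers (PTPRC, CD14, ITGAM, CSF1R, SPI1, LYZ, CD68, FCGR3A and CSF3R), 4 passed the filter, namely PTPRC, ITGAM, SPI1 and CD68. The whole list summed to 18.3 to 20.8 CPM in DMSO and 19.5 to 23.1, 21.1 to 23.1, 18.8 to 23.5, 18.2 to 20.2 and 18.2 to 22.2 CPM after 0.5, 1, 2, 4 and 24 h of dTAG. The 1 h libraries lay wholly above the DMSO range, and the other dTAG groups overlapped it; the part of this in the FPR values was not tested. In single libraries the 4 that passed reached up to 242 (CD68), 66 (SPI1), 63 (PTPRC) and 30 counts (ITGAM), and FPR1 reached 210. Those that did not pass had at most 15 (CSF1R), 11 (CSF3R), 7 (CD14), 4 (FCGR3A) and 2 counts (LYZ, which encodes lysozyme). Of 5 fibroblast markers 1 passed, and its list summed to 10.6 to 16.1 CPM with no group apart from the rest.

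HAS1, 1 of the 3 plasma membrane enzymes that make hyaluronan, had 0 to 6 counts per library and was not tested. Its level was 0.425, 0.683, 0.428 and 0.402 CPM in DMSO and 0 to 0.635 CPM after dTAG. Every library of 2 h (0 to 0.356 CPM) and 4 h (0.192 to 0.39 CPM) was below every DMSO library, in counts of 0 to 5 against 3 to 6, and the 0.5, 1 and 24 h libraries overlapped DMSO.

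ZNF350-AS1, the noncoding gene on the strand opposite ZNF350, rose by less than FPR1 and FPR3. In DMSO it stood at 23.4, 19.3, 18.2 and 18.0 CPM. The 0.5 h libraries held 29.7, 28.5, 31.1 and 29.7 CPM, those of 1 h 30.7, 29.9, 29.1 and 31.8 CPM, and those of 2 h 27.4, 31.8, 28.9 and 27.9 CPM. These libraries all exceeded the highest DMSO value, that of replicate 1. The margin was smaller at 4 h (24.6, 30.5, 27.8 and 24.6 CPM) and 24 h (26.4, 24.2 and 25.6 CPM), again without overlap. At 0.5 h the log2 fold change was 0.60 ± 0.08 (SE), and the tested contrasts gave 0.63 ± 0.08, 0.56 ± 0.08, 0.46 ± 0.08 and 0.37 ± 0.08 at 1, 2, 4 and 24 h, with edgeR adjusted p of 0.000381, 0.000774, 0.00471 and 0.0452. The calls of 1 and 2 h held under each of the 10 alternatives, and those of 4 and 24 h were lost without replicate 2, 3 or 4 (log2 fold changes of 0.32 to 0.46) and when only the compared groups were fitted, and that of 24 h also with total counts (0.41).

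ZNF350, also known as ZBRK1, encodes a KRAB repressor that acts with BRCA1 on the damage-response gene GADD45A. Its replicates lay close together: DMSO libraries held 56.6, 55.2, 59.7 and 55.2 CPM. The dTAG libraries held 74.5, 75.4, 80.0 and 75.7 CPM after 0.5 h, then 72.4, 73.5, 75.6 and 76.3 CPM after 1 h, then 76.1, 78.8, 73.8 and 78.7 CPM after 2 h. At 4 h the values were 84.1, 76.0, 76.6 and 70.9 CPM and at 24 h 72.3, 74.7 and 73.9 CPM. All 19 dTAG libraries were above the 4 DMSO libraries. ZNF350 changed by 0.43 ± 0.04 on the log2 scale (SE) at 0.5 h and by 0.39 ± 0.05, 0.44 ± 0.04, 0.44 ± 0.05 and 0.38 ± 0.05 at 1, 2, 4 and 24 h. The edgeR adjusted p of these 4 was 0.000243, 1.91e-05, 1.95e-05 and 0.000278.

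ZNF613, a KRAB zinc finger gene that ends 356 bases before ZNF350-AS1 on the same strand, rose by a similar amount. DMSO libraries held 84.1, 80.3, 101 and 90.0 CPM. After 0.5, 1, 2, 4 and 24 h of dTAG its libraries ranged over 104 to 128, 110 to 124, 107 to 125, 109 to 121 and 106 to 117 CPM. Replicate 3 of DMSO, at 101 CPM, came closest to the treated libraries. Its log2 fold change was 0.38 ± 0.07 (SE) at 0.5 h and 0.40 ± 0.07, 0.39 ± 0.07, 0.38 ± 0.07 and 0.32 ± 0.08 at 1, 2, 4 and 24 h, with edgeR adjusted p of 0.0067, 0.00892, 0.0107 and 0.0653. Without replicate 2 or without replicate 4 none of the 4 calls held, with log2 fold changes of 0.29 to 0.39, and with total counts in place of TMM factors none held either. With only the compared groups fitted, the 1 h call alone held.

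ZNF577, the longest span of the region, rose at 1, 2 and 4 h. DMSO libraries held 103, 113, 117 and 109 CPM, and dTAG libraries 125 to 147, 135 to 157, 135 to 150, 134 to 147 and 128 to 133 CPM after 0.5, 1, 2, 4 and 24 h. None of these ranges reached the DMSO range. The log2 fold change was 0.27 ± 0.06 (SE) at 0.5 h, then 0.39 ± 0.06, 0.37 ± 0.06 and 0.35 ± 0.06 at 1, 2 and 4 h, with edgeR adjusted p of 0.00103, 0.00144 and 0.00179. The 2 h call was lost without replicate 4 (log2 fold change 0.34) and the 4 h call with total counts (0.32). The 24 h value of 0.23 ± 0.06 missed the threshold (edgeR adjusted p 0.101). It passed with the replicate block (edgeR adjusted p 0.0142) and in DESeq2 (DESeq2 adjusted p 0.0178). The gene ENSG00000283236, which lies inside ZNF577 on the same strand, showed 0.38 ± 0.13 at 1 h (edgeR adjusted p 0.267). The block called it at 1, 2 and 4 h (edgeR adjusted p 0.0574, 0.0707 and 0.0631).

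ZNF649 encodes a KRAB protein and shares its last bases with the ZNF577 span. It held 35.6, 45.0, 43.9 and 39.3 CPM in DMSO, 46.5 to 51.0 CPM at 1 h and 48.7 to 54.6 CPM at 2 h. The 4 h libraries (40.7 to 51.3 CPM) and 24 h libraries (44.4 to 47.8 CPM) overlapped the DMSO range. It rose by 0.34 ± 0.07 on the log2 scale (SE) after 2 h, where the edgeR adjusted p was 0.0193. That call was lost without replicate 3 (log2 fold change 0.38), without replicate 4 (0.30), with total counts (0.35) and when only the compared groups were fitted (0.33). At 1 h the change of 0.26 ± 0.07 was not called (edgeR adjusted p 0.113). It was called with the block (edgeR adjusted p 0.0211) and by DESeq2 (DESeq2 adjusted p 0.0636). The 0.5, 4 and 24 h values were 0.28 ± 0.07, 0.15 ± 0.07 and 0.15 ± 0.07, of which those of 4 and 24 h had edgeR adjusted p of 0.612 and 0.669.

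ZNF615, the KRAB zinc finger gene at the end of the region, was not called at any of the 4 tested times. DMSO libraries held 30.3, 28.8, 34.2 and 31.5 CPM, and dTAG groups ranged over 32.8 to 38.9, 27.1 to 39.0, 36.2 to 38.1, 34.9 to 38.1 and 32.2 to 38.6 CPM after 0.5, 1, 2, 4 and 24 h. Only the 2 h and 4 h libraries lay wholly above DMSO. Its log2 fold change was 0.19 ± 0.08 (SE) at 0.5 h and 0.12 ± 0.09, 0.24 ± 0.08, 0.24 ± 0.09 and 0.20 ± 0.09 at 1, 2, 4 and 24 h, with edgeR adjusted p of 0.784, 0.375, 0.368 and 0.633. With the replicate block it was called at 2 h (edgeR adjusted p 0.0452) and at 4 h (edgeR adjusted p 0.0573).

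**Figure D4:**
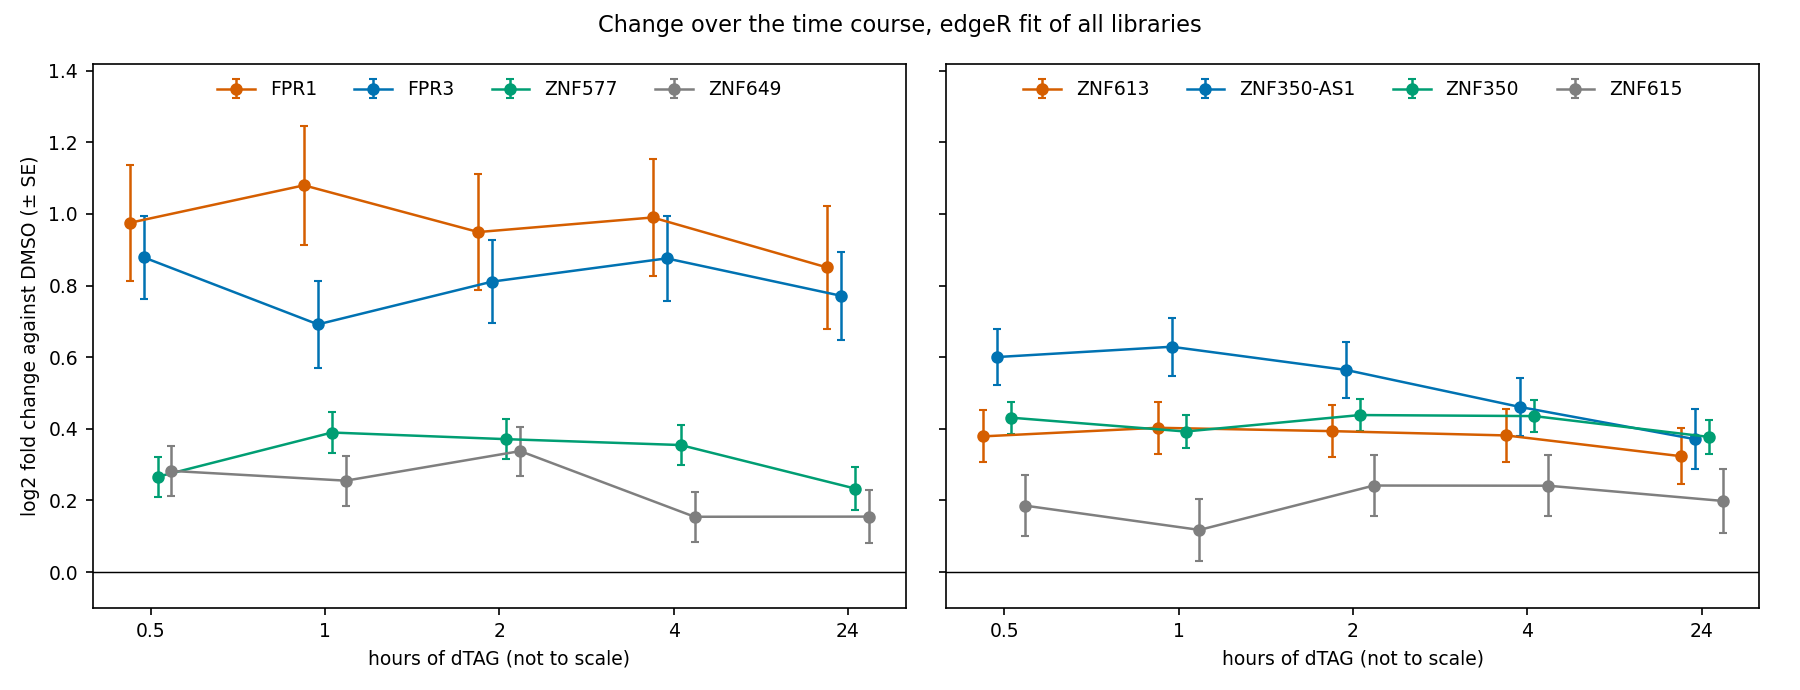
Log2 fold change against DMSO (y axis, points with SE) at 0.5, 1, 2, 4 and 24 h of dTAG (x axis, not to scale) for 8 genes, from the edgeR fit of all libraries. FPR1 and FPR3 lie between 0.69 and 1.08 throughout, and the ZNF350-AS1 line goes from 0.63 at 1 h to 0.37 at 24 h, where it meets ZNF350 at 0.38.

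Differences among the later times do not use the DMSO libraries. Over 1, 2, 4 and 24 h, 0 of 9 genes differed in edgeR's test (background 1.21%), with adjusted p between 0.466 and 0.986. An unadjusted p under 0.05 was found for 2, and its frequency over all tested genes was not counted. DESeq2 called 0 (background 2.82%). With the replicate block, ZNF577 (edgeR adjusted p 0.0638) and ZNF649 (edgeR adjusted p 0.0822) were called, against a background of 5.04%. Between 24 h and 1 h, 0 of 9 were called (background 2.08%), and DESeq2 again called 0 (background 4.04%). An unadjusted edgeR p under 0.05 was found for 2 of 9 in that contrast, and for 3197 of all 26057 tested genes. The block called 2, with a background of 6.65%. In that contrast ZNF350-AS1 showed -0.26 ± 0.08 (SE; edgeR adjusted p 0.168), and the block gave -0.25 with an edgeR adjusted p of 0.0903. ZNF577 showed -0.16 ± 0.06 (SE; edgeR adjusted p 0.27), and the block gave -0.18 with an edgeR adjusted p of 0.0224. In both genes every 24 h library was below every 1 h library. How often other tested genes separate in this way was not counted. FPR1 (-0.23 ± 0.17), FPR3 (0.08 ± 0.12) and ZNF350 (-0.01 ± 0.05) showed no detectable difference between 24 h and 1 h.

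The annotated spans of FPR1 and ZNF350-AS1 each begin shortly after that of a more strongly transcribed gene on the same strand. Their values are therefore given beside that gene. The FPR1 span begins 700 bases beyond the end of the ZNF577 span, which was 14.4 times as dense per kb of span in DMSO. Only 1 of the 4 FPR1 transcripts starts there, at 51804115, and the canonical one starts much farther away, at 51751878. The canonical ZNF577 transcript ends at 51867048, well before the end of its span. FPR1 held 4.74 ± 0.811 counts per 100 ZNF577 counts in DMSO (SD, n = 4). After 0.5, 1, 2, 4 and 24 h of dTAG it held 7.75 ± 0.382, 7.83 ± 1.17, 7.13 ± 0.629, 7.28 ± 1.45 and 7.28 ± 1.41 (n = 3 at 24 h). The DMSO ratios, 3.84 to 5.79, were below those of every dTAG library except 1 at 24 h (5.65). ZNF350-AS1 lies 356 bases beyond ZNF613, which was 6.73 times as dense, and held 22.4 ± 4.37 counts per 100 ZNF613 counts in DMSO and 25.9 ± 1.96, 25.9 ± 1.56, 24.9 ± 2.73, 23.2 ± 1.98 and 22.9 ± 1.72 at 0.5, 1, 2, 4 and 24 h. Here the ranges of DMSO and of every dTAG group overlapped. These ratios were computed after the values had been seen, and how many reads in FPR1 and ZNF350-AS1 come from polymerases that passed the end of the upstream gene was not tested.

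After the group means were removed, libraries in which one gene was high did not always have the others high. The Pearson correlation of log2 CPM deviations over 23 libraries was 0.81 for ZNF577 with ZNF613, 0.69 for ZNF613 with ZNF615, 0.49 for FPR1 with ZNF577 and 0.40 for FPR1 with FPR3. It was -0.05 for ZNF350-AS1 with ZNF613 and 0.00 for ZNF350-AS1 with ZNF350. The libraries differ in depth, and those with the same replicate number were collected together, so they are not independent. Over all 23 libraries and 16938 genes with a mean of at least 50 counts, the genes most like FPR1 in log2 CPM were ART4 on chromosome 12 (r = 0.87), ENSG00000283982 on chromosome 9 (r = 0.87) and ENSG00000265943 on chromosome 18 (r = 0.86). Those most like ZNF350-AS1 were FSIP1 on chromosome 15 (r = 0.88), BCAR3 on chromosome 1 (r = 0.85) and ENSG00000250195 on chromosome 4 (r = 0.85). By the same measure FPR1 had r = 0.86 with ZNF613, 0.85 with ZNF577 and 0.83 with FPR3, but 0.50 with ZNF615 and -0.28 with FPR2. ZNF350-AS1 had r = 0.81 with ZNF350 and 0.73 with ZNF613, but 0.37 with ZNF615 and -0.10 with FPR2. These values include the shift from DMSO to dTAG by which the genes were chosen.

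Beyond ZNF615 a few zinc finger genes were also called as higher. Of 162 other annotated genes in the region and within about 1 Mb of it, 78 were tested, of which 3 were called as higher at 1, 2 and 4 h (3.85%) and 2 at 24 h (2.56%). Over all tested genes, 0.514%, 0.43%, 0.526% and 0.564% were called as higher at 1, 2, 4 and 24 h. None of the 78 was called as lower. On the ZNF615 side these were 3, 3, 3 and 1 of 41 tested genes at 1, 2, 4 and 24 h. On the HAS1 side 0 of 36 were called at 1, 2 and 4 h by edgeR and by DESeq2. There 3, 1 and 3 had an unadjusted edgeR p under 0.05, against 2454, 1849 and 1946 of all 26057 tested genes. At 24 h edgeR called 1 of the 36 (ETFB, an electron transfer flavoprotein subunit, 0.29 ± 0.07). The replicate block called 0, 0, 1 and 1 on that side, with ZNF175 at 4 h (0.20 ± 0.06, edgeR adjusted p 0.0995), and 5, 6, 4 and 4 on the ZNF615 side. Over all 78 the counts at 1, 2, 4 and 24 h were 6, 7, 6 and 5 with the replicate block, and 1, 1, 0 and 0 without replicate 4. Those of the block were 7.69%, 8.97%, 7.69% and 6.41%. Of all tested genes the block called 3.25%, 2.43%, 2.49% and 2.65% in either direction. A difference between the sides was not tested.

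ZNF614, the neighbour of ZNF615, was called at all 4 times tested, with a log2 fold change of 0.30 ± 0.06, 0.37 ± 0.06, 0.26 ± 0.06 and 0.27 ± 0.07 (SE) and edgeR adjusted p of 0.0214, 0.00294, 0.0654 and 0.0736. ZNF432, which overlaps ZNF841 by 31274 bases on the same strand, was called at 1, 2 and 4 h (0.33 ± 0.05, 0.32 ± 0.05 and 0.27 ± 0.05). ZNF841 itself showed 0.33 ± 0.12 at 1 h and was not called (edgeR adjusted p 0.304), and with the replicate block it was called at 1, 2 and 4 h (edgeR adjusted p 0.0221, 0.0219 and 0.0906). ZNF616, which overlaps the unnamed gene ENSG00000267827 on its strand, was also called at 1, 2 and 4 h (0.36 ± 0.06, 0.30 ± 0.06 and 0.26 ± 0.06). SPACA6, the counted neighbour of HAS1, showed 0.03 ± 0.12, -0.07 ± 0.12, 0.08 ± 0.12 and 0.03 ± 0.13 at 1, 2, 4 and 24 h.

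**Figure D5:**
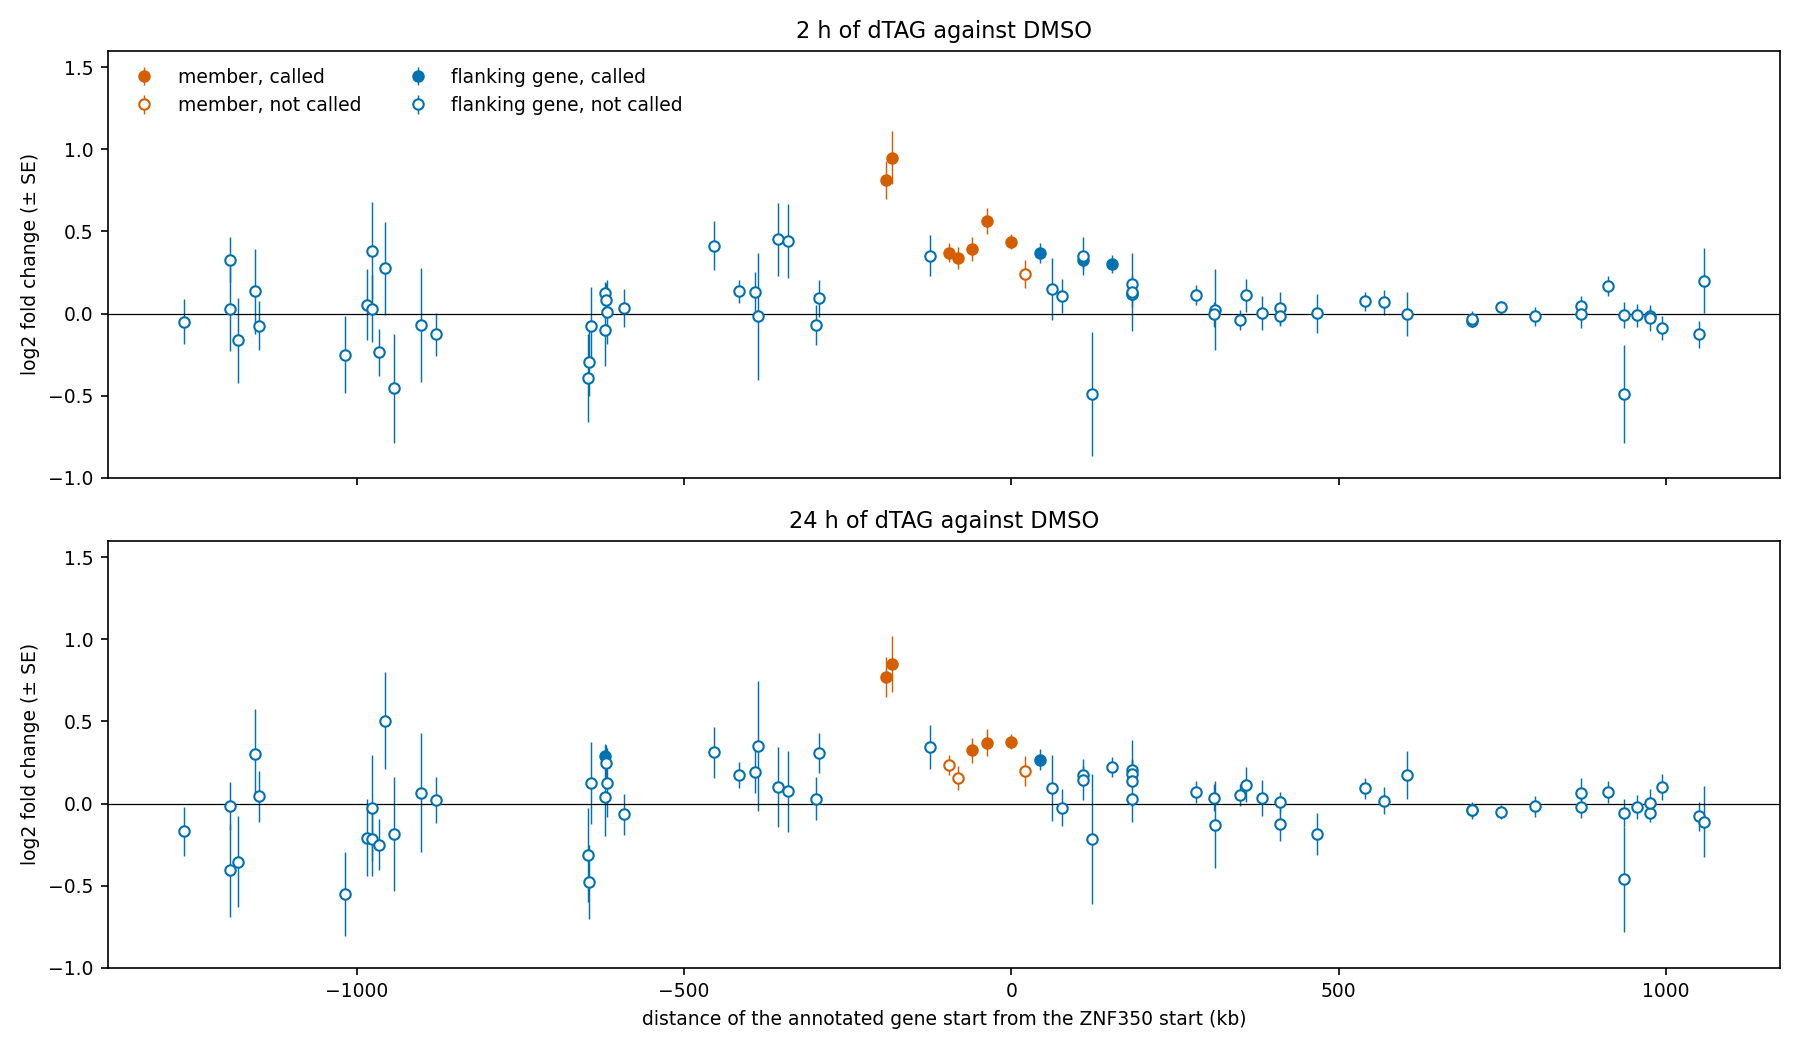
Log2 fold change with SE (y axis) at 2 h (top) and 24 h (bottom) of dTAG for the tested genes of the region and its flanks, by the distance of their annotated start from the ZNF350 start in kb (x axis), with members in orange, other genes in blue and filled points for called genes. Of the tested genes, 78 with an SE of at most 0.4 are plotted at each time and 9 with a larger SE, FPR2 among them, are left out. FPR1 (0.95 at 2 h) and FPR3 (0.81) lie above the other plotted points at both times, whereas ZNF614 (0.37) and ZNF841 (0.35) lie above the member ZNF649 (0.34) at 2 h.

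Most other zinc finger genes of chromosome 19 were not called. Of 230 tested besides the members, 3, 4, 3 and 2 were called as higher at 1, 2, 4 and 24 h and 0 as lower by edgeR without the block. These were 1.3%, 1.74%, 1.3% and 0.87%, against 0.514%, 0.43%, 0.526% and 0.564% of all tested genes called as higher. Those at 1 and 4 h were all flanking genes named above, ZNF614, ZNF432 and ZNF616. Of the 230, 19, 16, 15 and 22 had an unadjusted edgeR p under 0.05 in either direction. Over all 26057 tested genes 2454, 1849, 1946 and 1921 did. DESeq2 called 3, 5, 3 and 2 as higher and 0, 0, 0 and 1 as lower. The replicate block called 5, 8, 8 and 4 as higher and 3, 0, 1 and 6 as lower, so that at 24 h more were lower than higher. In either direction it called 3.48%, 3.48%, 3.91% and 4.35% of the 230, against 3.25%, 2.43%, 2.49% and 2.65% of all tested genes. At 24 h it called 372 of all tested genes as higher and 319 as lower. Those lower with the block were ZNF599, ZNF546 and ZNF446 at 1 h and ZNF845 at 4 h, and at 24 h ZNF90, ZNF431, ZNF492, ZNF726, ZNF566 and ZNF829, by 0.15 to 0.30 on the log2 scale. The median log2 fold change of the 230 by edgeR without the block was 0.00, 0.01, 0.01 and 0.02 at 1, 2, 4 and 24 h. Besides ZNF614, ZNF432 and ZNF616, those called without the block were ZNF850 at 2 h (0.30 ± 0.07) and ZNF91 at 24 h (0.26 ± 0.06), the latter known as a repressor of SVA retroelements.

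Genes that work with the members were read from lists. Over all tested genes, edgeR called 1.25%, 0.733%, 0.833% and 0.863% in either direction at 1, 2, 4 and 24 h. With the replicate block it called 3.25%, 2.43%, 2.49% and 2.65%. Without the block, 2454, 1849, 1946 and 1921 of the 26057 tested genes had an unadjusted edgeR p under 0.05. In lists this small, 1 called gene already makes a share of 5.26% (of 19) to 16.7% (of 6). Of 19 tested genes of formyl peptide receptor signalling, 0 were called at 1 and 2 h (2 at an unadjusted p under 0.05 each time; DESeq2 called 0), and 1 was called at 4 h and at 24 h, ARRB1, which encodes an arrestin that desensitizes such receptors (4 h: 0.26 ± 0.04, edgeR adjusted p 0.0016). The block also called ARRB1 at 2 h (0.14 ± 0.04, edgeR adjusted p 0.0766) and GNAI1, an inhibitory G protein subunit, at 24 h (0.24 ± 0.05, edgeR adjusted p 0.0126). Of 15 genes for hyaluronan synthesis, binding and breakdown, VCAN, the hyaluronan-binding proteoglycan versican, was called as higher at all 4 times (4 h: 0.67 ± 0.09, edgeR adjusted p 0.000534), and HMMR, a hyaluronan-binding protein of the mitotic spindle, as lower at 24 h (-0.25 ± 0.06, edgeR adjusted p 0.0508). The block also called HYAL3, of the hyaluronidase family, as lower at 1 h (-0.24 ± 0.06, edgeR adjusted p 0.0898) and HMMR as higher at 4 h (0.15 ± 0.04, edgeR adjusted p 0.0704). Of 12 KRAB corepressor genes, 0 were called by edgeR, with or without the block, or by DESeq2 at any of the 4 times, with 0, 0, 0 and 1 at an unadjusted edgeR p under 0.05. Of 6 partners and targets of ZNF350, RBBP8, which encodes the DNA end resection factor CtIP, was called as higher at all 4 times (4 h: 0.40 ± 0.05, edgeR adjusted p 9.88e-05). The block also called ANGPT1, which encodes the vessel growth factor angiopoietin-1, at 1, 2 and 4 h (4 h: 0.21 ± 0.04, edgeR adjusted p 0.0103). GNAI1, HYAL3, ANGPT1, ZNF175 and the zinc finger genes called as lower with the block were named after their values had been seen.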

How the data were processed

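Per the study's methods, the authors trimmed reads with cutadapt (1.8.1 per the labels), collapsed duplicates by molecular identifier, removed ribosomal DNA reads, aligned to hg38 with Bowtie2 (2.4.4) and SAMtools (1.9), and obtained gene counts with bedtools. The deposited values are raw counts per gene in 23 libraries. Which annotation was counted, and whether by strand, is not given in the sources used here. Coordinates are those of GENCODE v44, to which 60463 of 60605 identifiers matched, and promoter sequences are those of RefSeq.

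Counts were scaled by TMM factors, filtered with filterByExpr (minimum count 10, minimum total 15) and fitted over all 23 libraries with edgeR 4.0.16 in R 4.3.3 (glmQLFit, glmQLFTest), with two-sided p-values adjusted over 26057 genes (Benjamini-Hochberg) and called at FDR under 0.1. The SE of an edgeR log2 fold change was computed as its absolute value divided by the square root of the F statistic of its test. DESeq2 1.42.0 was an alternative. The scripts were tested on simulated data. Levels are CPM, per kb of gene span where genes are compared. The methods name no replicate term, so the fit had none; a block on the replicate number was the alternative. The treatment protocol in the labels has replicates treated and collected at different times of a day and the time points of each collected together. Deviations of libraries with the same number from group means correlated at 0.287 on average (55 pairs, lowest -0.0596), against -0.0825 for different numbers (165 pairs). Each replicate was also left out in turn, the low-count filter dropped, other scalings used and the compared groups fitted alone. The members and lists were chosen with earlier results of these data known. Named genes were all members, the flanking genes called at 2 or more times or nearest to either end, genes that overlap a member, the 3 genes most like FPR1 and ZNF350-AS1, and list genes called at any time; exceptions are stated.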

Additional observations from a re-analysis of the deposited data

Results flagged for a closer look

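Within each group of 4 libraries, a value was picked out when its gap to the nearest of the others exceeded Dixon's critical share of the group's range. Of 50 such groups over the 10 genes, 4 met it, and chance alone picks out about 1 in 20. FPR2 in replicate 1 at 0.5 h stood at 11.3 CPM (73 counts), with the nearest library at 1.38 CPM. FPR2 in replicate 1 at 4 h stood at 11.9 CPM (45 counts), with the nearest at 1.63 CPM. Both FPR2 values come from the replicate 1 harvest, in which FPR2 was also the highest of its group in DMSO, at 1 h and at 2 h. HAS1 in DMSO replicate 2 stood at 0.683 CPM, which is 5 counts, with the nearest at 0.428 CPM. ZNF649 in replicate 1 at 0.5 h was low, at 47.2 CPM (304 counts), against 50.4 to 50.9 CPM in the others.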

How the results depend on the processing

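The number of called genes (6, 7, 6 and 5 of 9 at 1, 2, 4 and 24 h) fell most at 24 h. With only the compared groups fitted it was 3 at 4 h and 2 at 24 h, in a fit with fewer libraries, and with total counts in place of TMM factors it was 3 at 24 h. Leaving out one replicate number at a time gave 5 to 6 genes at 1 h, 4 to 7 at 2 h, 4 to 6 at 4 h and 1 to 5 at 24 h. The lowest at 2 h came without replicate 4 (4 genes). At 24 h the count was 3 without replicate 2, 1 without replicate 3 (ZNF350) and 2 without replicate 4. DESeq2 gave 7, 7, 6 and 6 at 1, 2, 4 and 24 h. The replicate block gave 7, 8, 7 and 6, and 2 in place of 0 for the differences among the later times; apart from the genes named in the report it changed no call of a member. ZNF350 kept its call at all 4 times under each of the 10 alternatives, whereas ZNF613 lost its call in 17 of 40 combinations of time and alternative, ZNF350-AS1 in 9, FPR1 in 5, FPR3 in 3, ZNF649 in 4 and ZNF577 in 2. Over 320 such combinations without FPR2, none changed direction. FPR2 at 4 h changed sign without replicate 2 (0.25) and without replicate 4 (0.06), over a leave-one-out range of -1.36 to 0.25. ZNF350 at 24 h against 1 h went from -0.01 to 0.0070 without the low-count filter and to 0.043 with total counts. The cause of these changes was not tested. The flanking genes called as higher (3, 3, 3 and 2 of 78 at 1, 2, 4 and 24 h) numbered 0 to 7 under the alternatives, and no alternative called one as lower. Of 230 other zinc finger genes of the chromosome, the block called 5, 8, 8 and 4 as higher in place of 3, 4, 3 and 2, and 3, 0, 1 and 6 as lower in place of 0. Over all tested genes it called 3.25%, 2.43%, 2.49% and 2.65% in either direction. FPR1 and FPR3 rest on 28 to 210 and 34 to 176 counts per library, and HAS1 on too few counts for a test.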
